A study of Bos taurus with 4 samples.

Results

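The genes described here encode integrins, kindlins and the proteins that gather at focal adhesions. They were chosen as a list of 39 bovine symbols, and every non-control probe whose reference accession maps to 1 of them was taken. The list matched 27 genes with 62 probes, out of 11054 named genes and 43653 probes on the array. No probe was matched in this way to *ENAH*, *FLNA*, *FERMT1*, *ITGB1BP2*, *TLN1*, *TLN2*, *ITGA1*, *ITGA3*, *ITGA8*, *ITGB3*, *BCAR1* or *PXN*, which are not analysed here. A total of 58 probes of 26 genes were bright enough to be tested, meaning well above background in at least 1 dye channel on all 4 arrays. The untested probes were the only probe of *ITGA2*, which was not well above background in either channel on any array, and 1 dimmer probe each of *PARVA*, *ITGA5* and *ITGA9*, whose other probes were tested.

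RNA came from the semitendinosus, a hindlimb muscle, of 15-month-old bulls of the beef breed Hereford (HER) and the dairy breed Holstein-Friesian (HF), which served as the control. Each of 4 dual-colour arrays, all on 1 slide, paired 1 HER bull with 1 HF bull, so that 4 bulls of each breed were measured as biological replicates. The animals were compared as breeds, without any treatment. The study's methods state that the pieces came from the central part of the muscle, with connective and fat tissue cut away. Each RNA sample was drawn from such a piece as a whole, in which fewer cells of a type and less RNA per cell cannot be told apart.

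Integrins are paired α and β receptors that hold the cell to collagen, laminin and fibronectin outside it. Talin and kindlin bind the β tail and switch the receptor on, while the complex of ILK, PINCH and parvin, together with vinculin, zyxin and tensin, ties it to actin. In skeletal muscle these proteins are concentrated at costameres, where the sarcomere is coupled to the membrane, and at myotendinous junctions, where the fibre passes its force to tendon.

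All values are log2 ratios of Cy5 over Cy3, and the breed behind each dye is not settled. The labels give Cy3 to HER and Cy5 to HF, with a remark that dyes were swapped. With the dyes read as labelled, the signs of *FERMT2*, *TES* and *FBLIM1* are opposite to those in the study's tables. The bulls are therefore called Cy5 bulls and Cy3 bulls below, and "higher" means higher in the Cy5 bulls. Every array carried the same dye orientation, so an effect of breed and an effect of dye on a probe cannot be told apart.

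Signal was stronger in Cy5, with between 76.7% and 82.1% of probes well above background per array against 65.2% to 76.3% in Cy3, and no spot was saturated. The log2 ratios of any pair of arrays had a Pearson's r between 0.332 and 0.618. These correlations are across probes, and probes are not independent replicates. Of 10 skeletal muscle markers, 9 had a tested probe, and all 9 were well above background in both channels on all 4 arrays. Array 1 stood apart in tendon markers. Mean log2 ratios of the 4 tested tendon markers were -1.18, 0.13, -0.05 and 0.18 on arrays 1 to 4, and the Cy3 bull of array 1 had a mean level of 10.29 against 8.27 to 8.70 in the other Cy3 bulls and 8.22 to 9.11 in the Cy5 bulls. Members for which array 1 stood apart are given below with and without it.

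Among the adhesion genes, *TES* and *TNS1* were higher and *FERMT2* was lower in the Cy5 bulls, and none of the other 23 tested genes passed the test. In limma, with adjustment over all 32606 tested probes, 4 of the 58 member probes (6.9%) had an adjusted p under 0.05, where 3.32% of all tested probes did. The higher calls were 2 of 58 probes against 1.97% of the array, and the lower calls were 2 of 58 against 1.35%. A looser criterion taken from the study's methods asks for an unadjusted p not above 0.05 and a change of 1.3-fold or more. It was met by 8 member probes (13.8%), 3 higher and 5 lower, against 14.4% of all probes. The share of member probes that ran 1 way on all 4 arrays was 22.4% (13 of 58) and that of the array was 32.7%. The median log2 ratio of the 26 genes, each at its brightest tested probe, was -0.09, beside 0.02 over all named genes. Leaving out any 1 of the 4 arrays ended every call among the members, and the same step reduced the calls over the whole array from 1083 to between 5 and 96. By the looser criterion 8 to 16 member probes passed in those fits, where 12.7% to 16.2% of the array did. With all arrays, 14 of 58 member probes had an unadjusted p under 0.05 in limma, and the share of the array was 24.7%. The methods' t-test with adjustment called no probe of the whole array, so its lack of member calls says nothing about these genes. Without array 1, the probes lower by the looser criterion numbered 13, and those of both directions 16 of 59, beside 16.2% of the array.

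**Figure D1:**
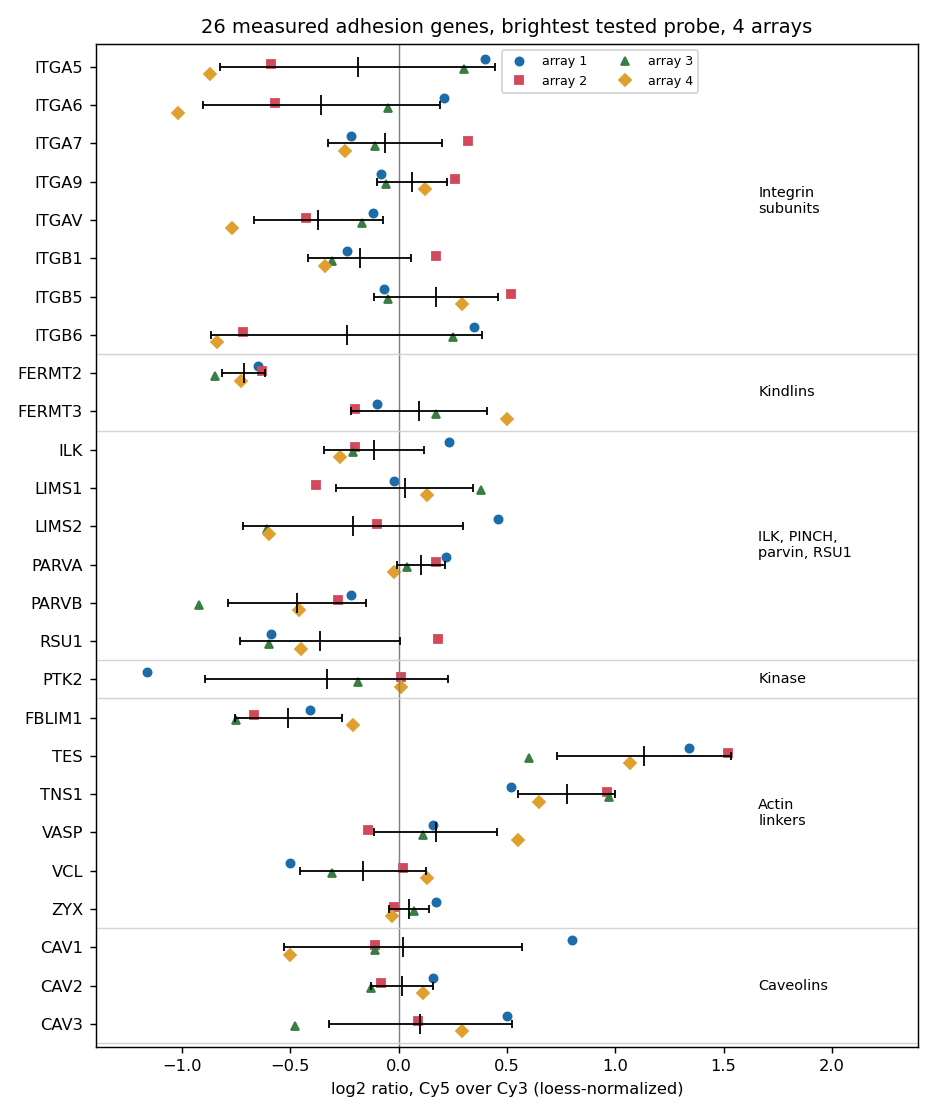
Log2 ratio of Cy5 over Cy3 on each of the 4 arrays (coloured markers) for the 26 tested adhesion genes at their brightest probe, with the mean ± SD in black. *TES* and *TNS1* lie to the right of 0 and *FERMT2* to the left on every array, while *CAV1* and *PTK2* hold 1 array far from the others.

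Integrin subunits, the receptors themselves, gave no call in either direction. Of their 16 tested probes, 2 had an unadjusted p under 0.05 in limma (12.5%), where 24.7% of all tested probes did. At the brightest probe, 6 of the 8 tested subunits had negative ratios, and the values ran from -0.37 to 0.17 with a median of -0.19. These 8 were the α subunits *ITGA5*, *ITGA6*, *ITGA7*, *ITGA9* and *ITGAV* and the β subunits *ITGB1*, *ITGB5* and *ITGB6*.

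*ITGAV*, the αV chain of vitronectin and fibronectin receptors, was the sole subunit with the same sign on all 4 arrays at its brightest probe. Its 3 probes read -0.37 ± 0.30 (SD, n = 4), -0.26 ± 0.25 and -0.25 ± 0.16, with adjusted p values of 0.144, 0.231 and 0.171. At the brightest probe the Cy5 bulls lay between 7.39 and 7.49 and the Cy3 bulls between 7.61 and 8.16 on the normalized log2 intensity scale. The 8 bulls thus did not overlap there, but they overlapped at the second probe. At the third probe they barely parted, with the highest Cy5 level at 6.73 and the lowest Cy3 level at 6.74. The dimmest *ITGA6* probe showed no overlap either, and the share of such probes over the whole array is not given here.

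The main laminin receptor of muscle fibres is integrin α7β1. *ITGA7* had a log2 ratio of -0.06 with a 95% interval of -0.35 to 0.22, and *ITGB1*, the β chain that most integrins of muscle share, had -0.18 with an interval of -0.45 to 0.09. *ITGA7* was 0.73 higher, with an adjusted p of 0.0204, when arrays were centred on their median without loess, so its near-0 value depends on the normalization. *ITGA5*, the fibronectin receptor chain, ran in opposite directions between arrays, at 0.40, -0.59, 0.30 and -0.87, with a mean of -0.19 that was -0.39 without array 1. *ITGB6*, which pairs with αV and is known mostly from epithelia, showed the same alternation at 0.35, -0.72, 0.25 and -0.84. *ITGA6*, a laminin receptor chain, had 0.21, -0.57, -0.05 and -1.02. For these 3 genes arrays 2 and 4 were negative and the spread between arrays exceeded the mean ratio.

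*FERMT2* encodes kindlin-2, the kindlin of muscle and most other tissues, which activates β1 integrins together with talin. It was the sole member gene called lower. Its brightest probe read -0.65, -0.63, -0.85 and -0.73 on arrays 1 to 4, a mean of -0.72 ± 0.10 (SD, n = 4), with a 95% interval of -0.91 to -0.52. This is 1.64-fold lower in the Cy5 bulls, with an adjusted p of 0.0268 in limma. Levels on the normalized log2 intensity scale were 12.67, 12.97, 12.26 and 12.97 in the Cy5 bulls and 13.33, 13.61, 13.11 and 13.71 in the Cy3 bulls, with no overlap between the groups.

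The next brightest *FERMT2* probe gave -0.68, -0.67, -0.95 and -0.72, a 1.69-fold fall with an adjusted p of 0.0274. Here the bulls met at the edge, since the highest Cy5 level was 12.89 and the lowest Cy3 level was 12.86. The dimmest probe of the gene read 0.07, -0.34, -0.44 and -0.52, with a mean of -0.31 ± 0.26 and an adjusted p of 0.182, so it kept the sign on 3 of 4 arrays without passing the test. Median centring without loess put the brightest probe at 0.03, with an adjusted p of 0.903, and at -0.21 relative to the median of all tested probes. The fall was called with loess and with the scanner's own linear and lowess normalization (-0.68, adjusted p of 0.0474), and was not called with median centring. *FERMT3*, the kindlin of blood cells, had 0.10 and 0.08 at its 2 probes, with adjusted p values of 0.712 and 0.566.

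**Figure D2:**
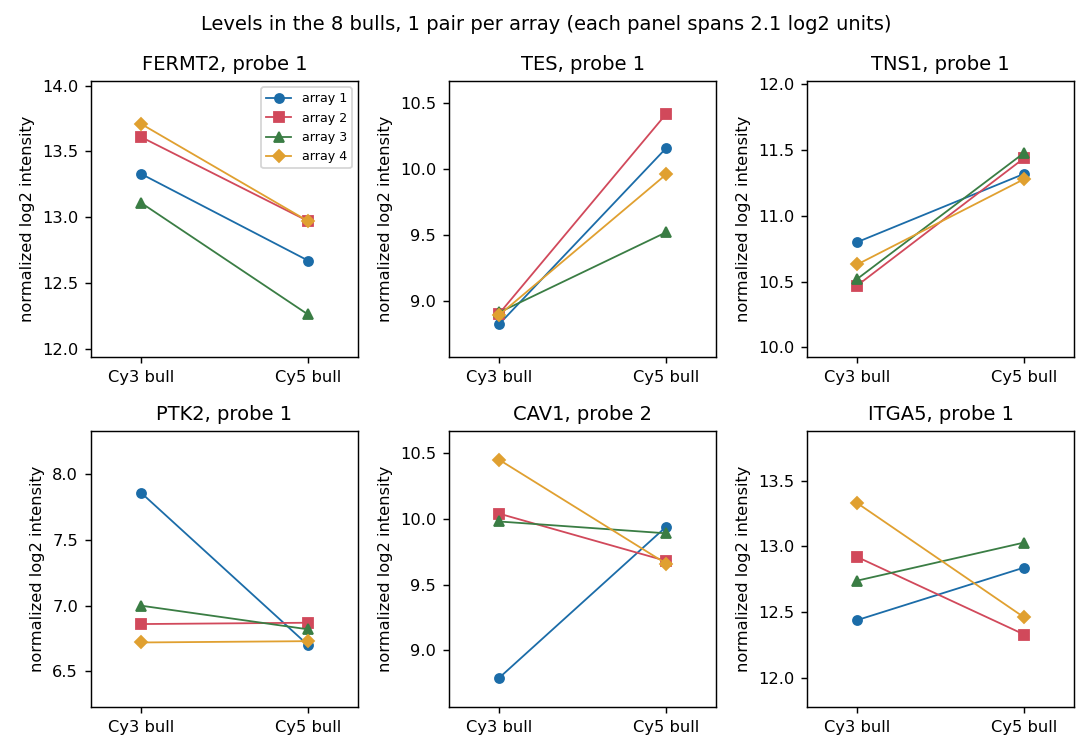
Normalized log2 intensity in the 8 bulls for the brightest probes of *FERMT2*, *TES*, *TNS1*, *PTK2* and *ITGA5* and the second probe of *CAV1*, with a line joining the Cy3 and Cy5 bull of each array. *FERMT2* falls and *TES* and *TNS1* rise from Cy3 to Cy5 on every array, and the Cy3 bull of array 1 stands alone for *PTK2* and *CAV1*.

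The ILK, PINCH and parvin complex binds the β tail next to kindlin and recruits actin. None of its 14 tested probes was called, and 3 had an unadjusted p under 0.05 in limma (21.4%), beside the 24.7% of the array. The log2 ratios of these probes ran from -0.58 to 0.17 with a median of -0.15, and 10 of the 14 were negative. The kinase-like scaffold *ILK* had -0.11, with an interval of -0.38 to 0.15, and -0.22 without array 1. The PINCH adaptors *LIMS1* and *LIMS2* had 0.03 and -0.21, and *RSU1*, which binds PINCH, had -0.37 with an adjusted p of 0.203. *PARVA*, the widely expressed α-parvin, read 0.10 at a probe that was well above background in Cy3 on 1 array only, so that the value depends on the background step.

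*PARVB*, the β-parvin enriched in muscle and heart, had the most negative values of the complex. Its brightest probe read -0.22, -0.28, -0.92 and -0.46, a mean of -0.47 ± 0.32 (SD, n = 4) and a 1.38-fold difference, with an adjusted p of 0.102. The other probes gave 0.15, -0.17, -0.98 and -0.83 in one case and 0.01, -0.38, -0.92 and -1.01 in the other, with adjusted p values of 0.236 and 0.129. All 3 probes were most negative on arrays 3 and 4, and the 2 dimmer ones were near or above 0 on array 1. The brightest and the dimmest probes met the looser criterion, but the levels of the Cy5 and Cy3 bulls overlapped at all 3. Median centring turned the brightest probe to 0.37.

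*LIMS2* shared the order of arrays seen for the brightest *PARVB* probe, with 0.46 on array 1 and -0.10, -0.61 and -0.60 on the other three. Its mean of -0.21 was -0.44 without array 1. *PTK2*, the focal adhesion kinase that integrin clustering activates, was measured by 1 dim probe. It read -1.16 on array 1 against 0.01, -0.19 and 0.01 on the others. The level of the Cy3 bull of array 1 was 7.86, while the other 7 bulls lay between 6.70 and 7.0, so the mean of -0.33 (adjusted p of 0.393) rested on array 1. Without that array it was -0.06. That Cy3 bull was also the one with the high tendon markers, and the part of tendon RNA in this value was not tested.

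Linkers to actin held both of the higher genes. *TES* encodes testin, a LIM-domain protein of focal adhesions and stress fibres that binds zyxin. Its brightest probe read 1.34, 1.52, 0.60 and 1.07 on arrays 1 to 4, with a mean of 1.14 ± 0.40 (SD, n = 4) and a 95% interval of 0.74 to 1.53. It was 2.20-fold higher in the Cy5 bulls, with an adjusted p of 0.0344 in limma. The Cy3 bulls were tightly grouped at 8.82, 8.90, 8.91 and 8.89, and the Cy5 bulls were spread at 10.16, 10.42, 9.52 and 9.96, all above them. The variation between arrays thus lay almost wholly in the Cy5 bulls.

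A dimmer *TES* probe had the same sign on all arrays, at 0.40, 0.55, 0.26 and 0.46. Its mean of 0.42 ± 0.12 had an adjusted p of 0.0562, and the Cy5 bulls (7.17 to 7.58) again lay above all Cy3 bulls (6.77 to 7.02). Array 2 was highest and array 3 lowest at both probes. The dimmer probe passed the threshold under 4 of the alternative settings, with adjusted p values from 0.0258 to 0.0493. Its ratio depended on the background step, at 0.78 with plain subtraction and 1.10 with the scanner-processed signals, where the brightest probe had 1.25 and 1.23.

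*TNS1* encodes tensin 1, which joins the tails of integrins to actin and gathers in fibrillar adhesions. The single probe read 0.52, 0.96, 0.97 and 0.65, with a mean of 0.77 ± 0.23 (SD, n = 4) and a 95% interval of 0.51 to 1.04. It was 1.71-fold higher, with an adjusted p of 0.0339. Levels were 11.32, 11.44, 11.48 and 11.28 in the Cy5 bulls and 10.80, 10.47, 10.52 and 10.63 in the Cy3 bulls, with no overlap. Under median centring *TES* and *TNS1* had ratios of 1.68 and 1.42, so both were higher with either normalization.

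*FBLIM1* encodes migfilin, an adaptor that binds kindlin-2 and filamin. Its brightest probe read -0.41, -0.67, -0.75 and -0.21, with a mean of -0.51 ± 0.25 (SD, n = 4), a 1.42-fold difference and an adjusted p of 0.0656. This was the lowest adjusted p among the uncalled genes, and the probe met the looser criterion, but the 2 groups of bulls overlapped. A second, dim probe of the gene read 0.18, 0.10, -0.06 and -0.04, with an adjusted p of 0.795. Median centring turned the brightest probe to 0.17.

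**Figure D3:**
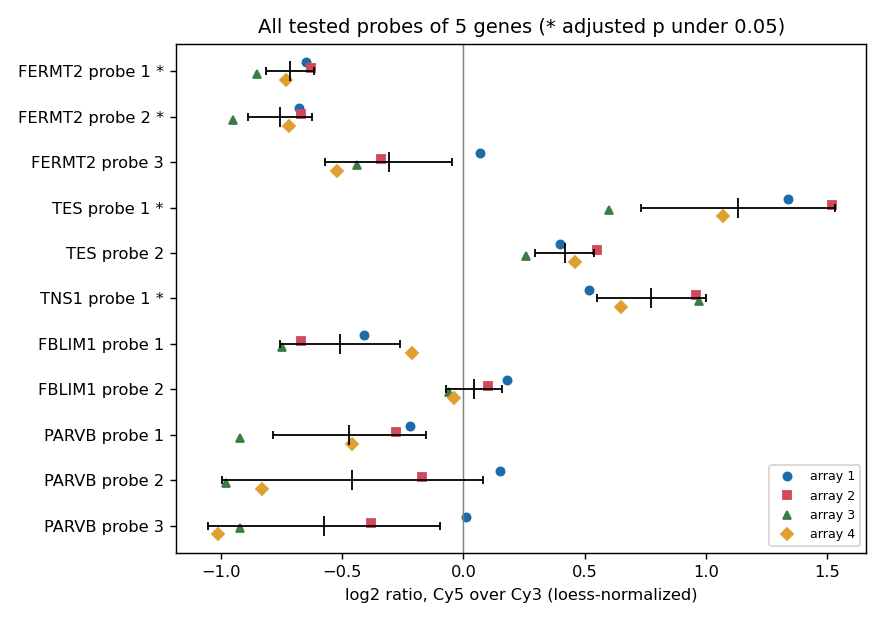
Log2 ratio of Cy5 over Cy3 on the 4 arrays for every tested probe of *FERMT2*, *TES*, *TNS1*, *FBLIM1* and *PARVB*, brightest probe first, with the mean ± SD in black and an asterisk at an adjusted p under 0.05. The brighter *FERMT2* probes lie near -0.7 on all arrays, and with this background correction the dim probes of *FERMT2*, *TES* and *FBLIM1* lie closer to 0 than the bright ones.

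None of the remaining linkers was called. *ZYX*, encoding zyxin, had 0.04 with an interval of -0.15 to 0.24 at its brightest probe and 0.24, positive on all arrays, at its dimmest (adjusted p of 0.183), although median centring put the brightest at 0.87 with an adjusted p of 0.00581. *VCL*, encoding vinculin, had 4 probes between -0.34 and -0.17, of which the dimmest was negative on all arrays with an interval of -0.59 to -0.10 and an adjusted p of 0.107. *VASP*, which promotes actin filament growth at adhesions, had 0.17 and 0.19 at its probes, with 0.55 and 0.62 on array 4.

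Caveolins coat the membrane pits in which integrins are taken up and are abundant in fat, endothelium and muscle. None of their 8 probes was called, and none had an unadjusted p under 0.05 in limma. *CAV3*, the muscle caveolin, had 0.10 and *CAV2* had 0.01. *CAV1*, which muscle fibres themselves hold little of, had a mean of 0.02 that hid opposite arrays, at 0.80, -0.11, -0.11 and -0.50. A second *CAV1* probe read 1.15, -0.36, -0.09 and -0.79.

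At that second probe the Cy3 bull of array 1 had a level of 8.79, against 9.98 to 10.45 in the other Cy3 bulls and 9.66 to 9.94 in the Cy5 bulls. All 5 *CAV1* probes were positive on array 1 and negative on the other 3 arrays. Without array 1 the brightest probe was -0.24. The same Cy3 bull had high tendon markers. Its adipocyte markers did not share a sign on array 1. *FABP4*, a fatty acid carrier of adipocytes, read -2.59 there, and *CIDEC*, *PLIN1* and *CIDEA* read -1.67, -0.80 and -0.20. *AQP7*, a glycerol channel, and *LPL*, lipoprotein lipase, read 1.08 and 0.95, and *LEP*, *PPARG* and *LIPE* lay between 0.07 and 0.15. The mean level of the 9 tested markers was 9.05 in this bull. It was at most 8.61 in the other Cy3 bulls and 8.74 in the Cy5 bulls. The part of fat or connective tissue in the *CAV1* values was not tested.

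Probes of 1 gene mostly shared a sign. Of 19 genes with several tested probes, 14 had the same sign at all of them, and the median spread between probes was 0.14, with a range of 0.02 to 0.72. The exceptions were *FBLIM1*, *ZYX*, *CAV1*, *CAV2* and *ILK*. The between-array SD of the 26 genes ran from 0.09 to 0.64 with a median of 0.295. With 4 arrays, the 95% interval lay inside a 1.3-fold change in both directions for 6 genes, *ZYX*, *CAV2*, *PARVA*, *ITGA9*, *ITGA7* and *LIMS1*. The intervals cover the spread between arrays alone and not the choice of processing. The *PARVA* probe is near background in Cy3, and its ratio was 0.58 with plain subtraction and 1.09 with the scanner-processed signals. The interval excluded 0, at an unadjusted p under 0.05 in limma, for 7 of the 26 genes (26.9%), beside 28.3% of all named genes. These were the 3 called ones, *FBLIM1*, *PARVB*, *ITGAV* and *RSU1*, whose upper bound rounded to 0.

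**Figure D4:**
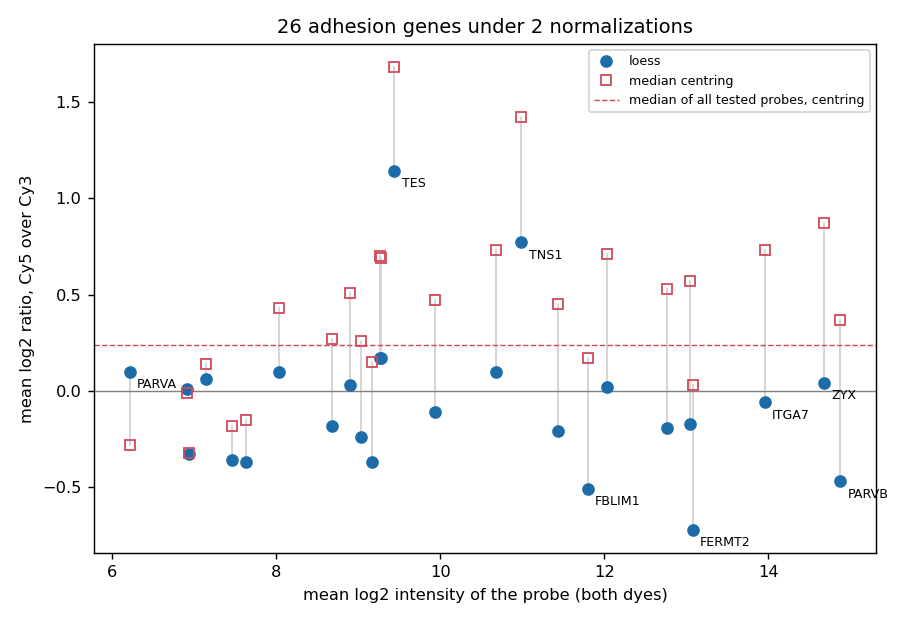
Mean log2 ratio of the 26 genes against the mean log2 intensity of their brightest probe, after loess (filled circles) and after median centring alone (open squares), with grey lines joining the values of a gene. The gap between the normalizations widens with intensity, and the dashed line marks 0.24, the median of all tested probes after centring.

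More of these genes changed sign with the normalization than with any other setting that was run. With median centring alone, 21 of the 26 genes were positive, against 12 with loess, and 17 were above the median of all tested probes, which itself moved to 0.24. A total of 13 genes changed sign, or 11 when that shift was subtracted. Calls over the whole array rose to 32.9% of probes, of which 93.4% were higher in Cy5, against 59.3% with loess. Member calls rose to 16 higher and 1 lower.

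Integrins and linkers outside the list were also tested, with 4 of 21 integrin probes (19%) and 5 of 69 linker probes (7.25%) called, beside the 3.32% of all probes. Of 8 other tested integrin subunits, *ITGB2* and *ITGB4* had probes called higher. *ITGB2*, the β2 chain of leukocyte integrins, was called at 3 of 6 probes, with log2 ratios of 0.49, 1.19 and 1.22, while the other 3 had 0.03 to 0.20. *ITGB4*, of hemidesmosomes, was called at 1 probe with 0.53. Its brightest probe had 0.22 (adjusted p of 0.181), and its remaining tested probes ran from -0.17 to 0.17. *ITGB2* was also the sole call among 7 tested leukocyte markers. The mean ratio of the list, which includes *ITGB2*, was between 0.24 and 0.44 on every array. Mean levels were 9.06 to 9.24 in the Cy5 bulls and 8.69 to 8.91 in the Cy3 bulls. The list did not share a sign at the brightest probes. *CSF1R*, *CD3E* and *CD163* had 0.68, 0.63 and 0.50, *CD68* had 0.08, and *CD14* and *CD79A* had -0.04 and -0.08. The part of leukocyte RNA in the *ITGB2* value was not tested.

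Among 22 other linker genes, *ACTN1*, the non-muscle α-actinin, was called higher at its brightest probe with 0.51 (adjusted p of 0.0454). Its other probes were not called and had 0.12 to 0.37, with adjusted p values from 0.114 to 0.407. *CAVIN1*, a coat protein of caveolae, was called at 1 probe with 0.65 (adjusted p of 0.0482). Its brightest probe had 0.61 (adjusted p of 0.0582), and its other tested probes differed in sign, from -0.26 to 0.65. *PDLIM5*, a Z-disc LIM protein, was lower at 3 probes, with -0.73, -0.73 and -0.62. None of 24 signalling genes of the adhesion pathway was called. *ROCK2*, a kinase that drives actomyosin contraction, was negative on all arrays at -0.41, -1.69, -0.67 and -1.81, with an adjusted p of 0.0695. Its second probe had -0.42 (adjusted p of 0.235). Others of the list also ran 1 way at their brightest probe, among them *PAK1* at -0.60 (adjusted p of 0.0557) and *APBB1IP* at 0.87 (adjusted p of 0.086).

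The matrix proteins that integrins bind were lower in 4 of 15 tested genes and higher in none. Of their 64 tested probes 16 were called lower (25%), beside 1.35% of all probes, and all 16 belong to those 4 genes. *COL1A1*, a chain of type I collagen, had -2.05 (adjusted p of 0.029) and *COL4A1*, of basement membrane, had -1.06 (adjusted p of 0.0422), beside calls for *COL3A1* and *COL1A2*. Fibroblast markers, which include 3 of those collagens, had mean log2 ratios of -1.21, -0.12, -1.06 and -0.59 on arrays 1 to 4, with mean levels of 11.02 to 11.89 in the Cy5 bulls and 11.88 to 12.59 in the Cy3 bulls. The other 5 markers of the list were not called and did not share a sign, since *POSTN* and *LUM* had -0.99 and -0.77, *DPT* had 0.00, and *DCN* and *PDGFRA* had 0.42 and 0.49. *FERMT2* read -0.65, -0.63, -0.85 and -0.73 on the same arrays, and the part of fibroblast RNA in it was not tested.

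The other marker lists had smaller shares of called probes than the 33.3% of the fibroblast list, beside 3.32% of all probes. Of 7 smooth muscle markers, *CNN1*, calponin 1, was lower at -0.79 (adjusted p of 0.0364), with -0.13 at its second probe (adjusted p of 0.396). The list did not share a sign, with means on the arrays between -0.08 and 0.39. *LMOD1* and *DES* had 0.81 and 0.71 (adjusted p of 0.0557 and 0.0532), and *SMTN*, *TAGLN*, *ACTA2* and *MYH11* ran from -0.20 to 0.40. None of 9 endothelial, 9 adipocyte or 4 tendon markers was called in limma. The most negative of them was *FABP4*, with a mean of -1.19 (adjusted p of 0.129) and negative ratios on all arrays. Skeletal muscle markers averaged 0.54, 0.03, 0.00 and -0.09 on arrays 1 to 4, with none of 9 called. The value of array 1 was carried by the slow-fibre genes *MYH7* and *TNNT1*, at 2.16 and 2.02 there, while the fast-fibre troponin *TNNT3* read -1.16. The part of the tissue make-up in the member values was not tested.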

How the data were processed

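Total RNA of the semitendinosus muscle was labelled and hybridised to 4 dual-colour Agilent bovine arrays, each with 1 HER bull and 1 HF bull. Scanner intensity values from Feature Extraction 10.7.3.1 were deposited. Per the file headers they comprise the median signal and local background of each spot, uncorrected, and processed signals after background subtraction, spatial detrending and linear and lowess dye normalization. In the deposited series table, values were log10 ratios of Cy5 over Cy3 of those processed signals. The software had set 7.41% to 12.2% of them to 0 on an array.

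Median signals were corrected by normexp with an offset of 50 and normalized within arrays by loess with control spots at weight 0. Outlier spots (7 to 14 per array) were left out, spots of a probe were averaged, and tested probes had values on at least 3 arrays. A two-sided test of each log2 ratio against 0 was made in R 4.3.3 with limma 3.58.1 (lmFit, eBayes), with Benjamini-Hochberg adjustment over all tested probes. Calls were made at 0.05. The scripts were tested on simulated data. Figures were drawn with matplotlib 3.10.9 in Python 3.11.15. Levels per bull are loess-normalized log2 intensities scaled between arrays (Aquantile).

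Probes were named through reference accessions (23492 of 43653 probes) in a RefSeq table. The array was annotated on another build (Btau_3.1), so no coordinates are given. A gene is given by its brightest tested probe by the mean log2 intensity of both dyes, with the other probes beside it. Values on every array are given for genes with a probe called or at the study's criterion and for *FERMT2*, *TES* and *FBLIM1*, and for others where 1 array stood apart. Of the pathway lists, called genes are named, at most 4 per list, and marker genes where called or standing apart. Other genes of the smooth muscle, fibroblast, leukocyte and adipocyte lists are named beside them. *ROCK2*, *PAK1* and *APBB1IP* were named after their values were seen. The members and lists were chosen with earlier results of these data known.

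All arrays lay on 1 slide in 1 dye orientation, so no batch term could be fitted. Alternatives for the background and normalization were uncorrected signals, subtraction, median centring without loess, the series table and the processed signals of the scanner. Dim probes were filtered more strictly or not at all. The fit was repeated with a robust prior and intensity trend, by the methods' t-test, without each array in turn, and on the mean of a gene's probes. The adipocyte list and the centred values relative to all probes were added after the data were seen. No comparison columns of the authors were used. The number of arrays, 4, limits the precision.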

Additional observations from a re-analysis of the deposited data

Results flagged for a closer look

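Of 32 member probes examined, 2 had 1 array far from the other three by Dixon's test at the 95% level, where chance alone gives about 1 in 20. At the brightest *ILK* probe array 1 read 0.23, against -0.20, -0.21 and -0.27 on the others, a gap of 0.861 of the whole range. At the second *FERMT2* probe array 3 read -0.95, against -0.68, -0.67 and -0.72, a gap of 0.83 of the range, and the brightest probe of the gene was also lowest on array 3.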

How the results depend on the processing

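With 4 arrays the calls stood close to the threshold. The 4 called probes stayed called, in the same direction, with uncorrected signals, with subtraction of the background, with the series table and the signals processed by the scanner, under either filter setting, and with a robust prior and intensity trend. They were not called with the methods' t-test. After adjustment that test called 0 member probes higher and 0 lower, and 0 of all 32606 probes. With its unadjusted p, 6 member probes met the study's criterion, beside 8.85% of all probes. Leaving out 1 array gave 0 to 0 calls higher and 0 to 0 lower in limma, for each of arrays 1, 2, 3 and 4. In those fits 16, 8, 8 and 9 member probes met the study's criterion, beside 16.2%, 13.4%, 14.3% and 12.7% of all probes. The adjusted p of the brightest probe ran from 0.0608 to 0.0943 for *FERMT2*, 0.0598 to 0.111 for *TES* and 0.0608 to 0.113 for *TNS1*. Over all probes the calls fell from 1083 to 96, 38, 5 and 5 in turn.

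By the study's criterion, main counts of 3 higher and 5 lower became 5 and 10 with plain subtraction, 5 and 11 with both the scanner-processed signals and the series table, 19 and 1 with median centring, and 3 lower with the methods' t-test. The share of all probes at the criterion moved too, from 14.4% to 23.2%, 24.8% and 41.4% with subtraction, the scanner-processed signals and centring, where 15, 16 and 20 of the 58 member probes met it. Leaving out 1 array gave 2 to 3 higher and 5 to 13 lower, the 13 without array 1, and a median of the genes of -0.08 to -0.03.

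Median centring without loess gave 16 member probes called higher and 1 lower, and a median of 0.44. It turned the sign of *FERMT2* (0.03), *ITGA5* (0.53), *ITGA7* (0.73), *ITGB1* (0.27), *ITGB6* (0.26), *RSU1* (0.15), *LIMS2* (0.45), *ILK* (0.47), *VCL* (0.57), *CAV2* (-0.01), *PARVA* (-0.28), *FBLIM1* (0.17, and -0.01 at its second probe) and *PARVB* (0.37, and 0.12 at its second probe). Relative to the median of all tested probes under that centring, an alternative chosen after seeing the data, the signs turned were those of *PARVA* (-0.52), *VCL* (0.34), *CAV2* (-0.24), *ILK* (0.24), *LIMS2* (0.22), *ITGB6* (0.02), *PARVB* (0.14), *ITGB1* (0.04), *ITGA9* (-0.10), *ITGA7* (0.49), *ITGA5* (0.30) and the second *FBLIM1* probe (-0.25). Loess removes an intensity-dependent difference between the dyes that centring keeps, and which of them is nearer to the RNA was not tested.

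Values near 0 changed sign elsewhere. *CAV1* was -0.01 and the second *FBLIM1* probe -0.14 with the scanner-processed signals and the series table, and that probe was -0.04 with no background correction. The mean over probes gave -0.12 for *CAV1* and -0.01 for *CAV2*. Leaving out 1 array gave -0.24 to 0.20 for *CAV1*, -0.04 to 0.06 for *CAV2*, -0.03 to 0.29 for *CAV3*, 0.00 to 0.08 for the second *FBLIM1* probe, -0.01 to 0.11 for *ITGA9*, -0.09 to 0.17 for *LIMS1*, -0.04 to 0.19 for *FERMT3* and -0.39 to 0.03 for *ITGA5*. The causes were not tested. A correction for GC content was not run. The test of the log2 ratios against 0 already used the pair of bulls on each array, so no separate paired analysis was run.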
